A study of Mus musculus with 6 samples.

Results

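Podocyte genes were examined in RNA from whole mouse kidneys with polycystic disease. The 8 genes were chosen by name for parts of the podocyte, namely the slit diaphragm, the cytoskeleton and its signalling, the cell surface and a transcription factor, and are *Nphs1*, *Podxl*, *Wt1*, *Synpo*, *Cd2ap*, *Ptpro*, *Magi2* and *Plce1*. All 8 were found among the 23276 gene symbols of the deposited table, where they take up 29 of 54721 rows, each row being a transcript. The study sequenced 3 kidneys of Ksp/Cre; *Pkd1* F/RC mice (SKO, single knockout) and 3 of Ksp/Cre; *Pkd1* F/RC mice that were also miR-17∼92 F/F (DKO, double knockout), all labelled as postnatal day 22. Every mouse of both groups thus carried Ksp/Cre, a floxed *Pkd1* allele and the hypomorphic RC allele of *Pkd1*, and no kidney without *Pkd1* mutation was analysed here. In the study's description the RC mutation is in the germline and the floxed allele is recombined only in renal tubules, so these mice are a model of tubule-specific loss laid over a germline defect. The study's description gives a slightly younger age for these kidneys than the labels do. The labels give neither the sex of each mouse nor a replicate number.

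The values given here are levels and not differences between SKO and DKO. The authors' own comparison of the groups was not used. The authors' deposited table holds 1 abundance for each transcript, a mean over all libraries of the comparison in CPM (read counts scaled to the size of the library) on a log2 scale, and no value for a single kidney. Each level below is therefore the authors' mean, without an error, and the order of neighbouring levels could not be set against the spread between mice. The depth of each library is unknown. Because the RNA came from whole kidneys, fewer podocytes and less RNA per podocyte cannot be told apart in any of these levels.

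Podocytes are the epithelial cells that cover the capillaries of the glomerulus. Their interlocking foot processes are joined by the slit diaphragm, which together with the basement membrane holds protein back from the urine. Nephrin, the product of *Nphs1*, forms the core of that diaphragm, and its intracellular part is tied to the actin cytoskeleton by adaptor and scaffold proteins. Ksp/Cre is driven by the promoter of *Cdh16*, the gene of kidney-specific cadherin, which is used in tubules and collecting ducts and not in podocytes.

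DKO differs from SKO in the floxed miR-17∼92 cluster, which Ksp/Cre deletes only where it is active. Whether the cluster was kept in podocytes was not tested. The mature sequences of the cluster's miRNAs are shown with the seed (bases 2 to 8) in capitals. All 6 were taken from RefSeq on GRCm38.p6 and lie on the forward strand of chromosome 14, from miR-17-5p at 115043684 to the end of miR-92a-3p at 115044496. They fall into 4 seed groups, since miR-20a-5p shares its seed with miR-17-5p, and miR-19b-3p shares its seed with miR-19a-3p.
mmu-miR-17-5p: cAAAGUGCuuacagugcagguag
mmu-miR-20a-5p: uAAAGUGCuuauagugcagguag
mmu-miR-18a-5p: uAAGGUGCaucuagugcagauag
mmu-miR-19a-3p: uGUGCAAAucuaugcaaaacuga
mmu-miR-19b-3p: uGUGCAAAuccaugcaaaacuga
mmu-miR-92a-3p: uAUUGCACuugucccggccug

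All 8 podocyte genes were detected in these kidneys. Every one had a mean of at least 1 CPM, as had 55.9% of all gene symbols, and their 29 rows ranged from 4.31 to 155 CPM. The lowest level in the table, shared by 4617 rows, was 0.0263 CPM. To compare genes, the CPM of the most abundant RefSeq mRNA row was divided by the length of the matching transcript in the GENCODE annotation. On this scale of CPM per kilobase of exon the level fell from 28.9 for *Cd2ap* to 0.909 for *Plce1*, a ratio of 31.8. The 8 genes fell into a high pair, 1 intermediate gene and a low group of 5.

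*Cd2ap* and *Podxl* were the high pair. *Cd2ap*, on the reverse strand of chromosome 17 of mm10 (42792951 to 42876665), encodes an adaptor that links nephrin to actin and is also made by many other cell types. Its RefSeq row stood at 155.1 CPM and its assembled row at 155.4 CPM, so both describe the same abundance. *Podxl* encodes podocalyxin, the negatively charged sialoprotein of the podocyte surface, which endothelial cells also carry. It had a single row, at 130.6 CPM, and 24.3 CPM per kilobase over an mRNA of 5379 bases in 8 exons (chromosome 6, 31519488 to 31563981, reverse strand). *Cd2ap* was thus 1.19 times *Podxl* per kilobase, a ratio with no error to set it against, and their levels lay above those of 95.5% and 94.6% of the 20167 genes that could be given a length.

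*Synpo*, which encodes the actin-associated protein synaptopodin of podocyte foot processes and of neurons, was intermediate at 7.38 CPM per kilobase. This was 3.29 times below *Podxl* and 3.27 times above the next gene. The gene lies on the reverse strand of chromosome 18 (60593973 to 60660142). Its 6 rows fell into 2 levels. The RefSeq transcript NM_177340 stood at 37.3 CPM with 3 assembled rows between 37.7 and 38.8 CPM beside it, whereas the RefSeq transcript NM_001109975 stood at 18.3 CPM and the remaining assembled row at 19.2 CPM. The RefSeq transcripts share 2378 exonic bases, which is 53.1% of NM_001109975, so reads in the shared part could have entered both rows. The spread of 2.12-fold between its highest and lowest row was the widest among the 8 genes.

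**Figure D1:**
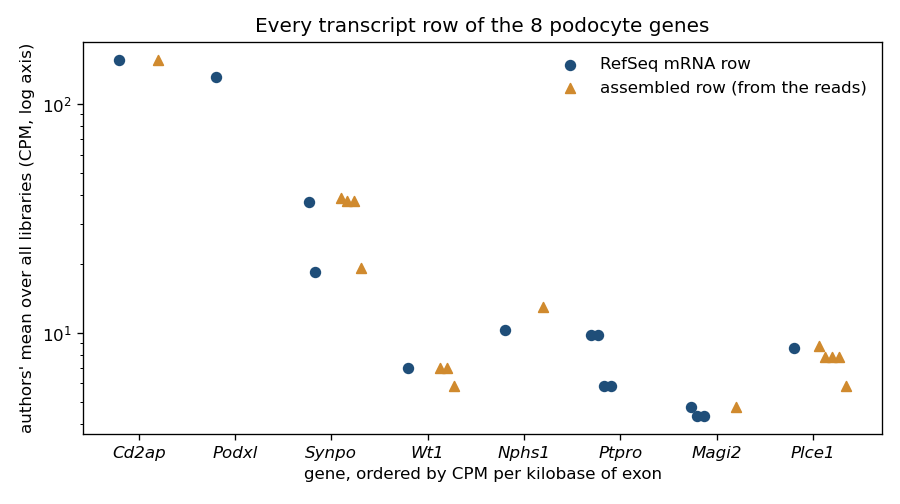
Each point is 1 transcript row of the deposited table. The vertical log axis gives the authors' mean over all libraries in CPM, circles are RefSeq mRNA rows and triangles are rows assembled from the reads. *Cd2ap* and *Podxl* lie above 100 CPM, the rows of *Synpo* form 2 levels near 38 and 19 CPM, and those of the other 5 genes lie between 4.31 and 13.0 CPM.

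*Wt1*, *Nphs1* and *Ptpro* had nearly the same level per kilobase, at 2.26, 2.22 and 1.93 CPM per kilobase. *Wt1*, on chromosome 2 (105126529 to 105173616, forward strand), encodes the zinc-finger transcription factor that podocytes keep after the nephron has formed. Its RefSeq row and an assembled row had the same value, 6.97 CPM, and the lowest of its 4 rows was at 5.87 CPM. *Nphs1* lies on the forward strand of chromosome 7 (30458315 to 30487223). Its RefSeq transcript of 30 exons stood at 10.3 CPM and its assembled transcript at 13.0 CPM. The antisense transcript *Nphs1os*, which the table lists under an older symbol, shares 597 exonic bases with *Nphs1* and was at 0.0278 CPM, close to the lowest level in the table. A processed pseudogene, *Rps12-ps4*, shares a further 183 exonic bases with *Nphs1* on the opposite strand and is not listed by symbol. The libraries were strand-specific, but whether strand was used in counting is not given in the sources used here.

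*Ptpro* encodes a receptor-type tyrosine phosphatase of the podocyte's apical membrane (chromosome 6, 137252319 to 137463233, forward strand). Its 4 rows are all RefSeq transcripts and took only 2 values. The long transcripts NM_011216 and NM_001164401 were both at 9.74 CPM, and the short transcripts NM_001164402 and NM_001164403 were both at 5.83 CPM. The short transcripts, of 2767 and 2667 bases, lie mostly within the long ones. Of NM_001164403, 95.6% of the bases are shared with NM_011216. Divided by length the rows came close together, at 1.93 CPM per kilobase for NM_011216 and 2.19 CPM per kilobase for NM_001164403. If each shared read was counted for both rows, the 3.90 CPM by which NM_011216 exceeded NM_001164403 correspond to 1.56 CPM per kilobase. This is over the 2499 bases that NM_011216 alone covers. Counting each shared read for every transcript would give equal values such as those of the long transcripts. The rule used is not given in the sources used here. A separate abundance for the short form cannot be read from these rows, since most of its bases are shared.

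*Magi2* and *Plce1* had the lowest levels, at 0.972 and 0.909 CPM per kilobase. *Magi2* encodes a membrane-associated guanylate kinase scaffold that binds nephrin and is also abundant at synapses. It is by far the longest of these genes, spanning 1478 kb of chromosome 5 (19227036 to 20704792, forward strand), whereas *Nphs1* spans 28.9 kb. Its 4 rows lay between 4.31 and 4.73 CPM, and NM_015823 and NM_001170745 had the same value. A non-coding transcript on the same strand, *Gm29254*, shares 203 exonic bases with *Magi2* and is not listed by symbol. Strand cannot separate reads in those bases. *Plce1*, on chromosome 19 (38481109 to 38785030, forward strand), encodes the enzyme phospholipase C epsilon. Its RefSeq transcript, the longest mRNA of the 8 at 9439 bases, stood at 8.58 CPM, and its 5 assembled rows ranged from 5.84 to 8.72 CPM. *Plce1* therefore had a higher CPM than *Magi2* and *Wt1* but the lowest level per kilobase.

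Length changed the place of several podocyte genes. By the CPM of each gene's highest row the order was *Cd2ap*, *Podxl*, *Synpo*, *Nphs1*, *Ptpro*, *Plce1*, *Wt1* and *Magi2*. Per kilobase *Wt1* moved up to the place before *Nphs1*, since its mRNA has 3090 bases, and 3 of the 8 genes kept their place. On the CPM scale the genes lay above 56.9% (*Magi2*) to 98.8% (*Cd2ap*) of all gene symbols. Per kilobase the range was from 45.1% (*Plce1*) to 95.5%, so that *Magi2* and *Plce1* were below the median gene of 1.404 CPM per kilobase.

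**Figure D2:**
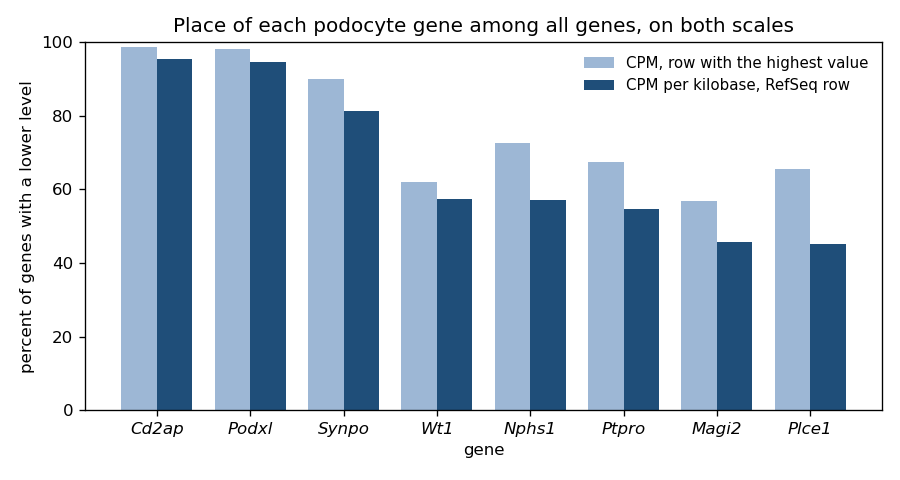
Bars show, for each podocyte gene, the percent of genes with a lower level. Light bars use the CPM of the gene's highest row among 23276 symbols, and dark bars use CPM per kilobase among 20167 genes with a length. For *Plce1* the value is 65.4% by CPM and 45.1% per kilobase, and for *Cd2ap* it is 98.8% and 95.5%.

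The 8 genes were next set beside 32 other genes known from podocytes. All 32 were listed and 29 had at least 1 CPM. Their median was 5.20 CPM per kilobase against 2.24 for the 8 genes, and 22 of the 32 lay above the latter value. The share of reads of these 32 genes that came from cells other than podocytes was not tested. The medians therefore do not compare levels within podocytes. By mean log2 CPM the highest were *Col4a3* and *Col4a4*, which encode chains of the mature glomerular basement membrane collagen, the actin crosslinker *Actn4* and the GTPase-activating *Arhgap24*. Their levels were 27.5, 14.1, 50.2 and 30.4 CPM per kilobase, against 28.9 for *Cd2ap* and 24.3 for *Podxl*. The lowest were *Kirrel2*, a relative of nephrin, at 0.0443, the transcription factor *Lmx1b* at 0.0513, the cation channel *Trpc6* at 0.136 and the forkhead factor *Foxc2* at 1.05 CPM per kilobase. The first 3 of these were at 0.149, 0.246 and 0.442 CPM and lay below each of the 8 podocyte genes both in CPM and per kilobase.

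Markers of tubule cells were far more abundant than podocyte genes. The median of 6 genes of the distal nephron and collecting duct was 92.3 CPM per kilobase, 41.2 times that of the 8 podocyte genes, and the median of 5 proximal tubule genes was 47.5 CPM per kilobase, 21.2 times. *Cdh16*, whose promoter drives the Cre, had a level of 167 CPM per kilobase. The tubule genes ranged from *Cubn*, an endocytic receptor, at 11.4 to the phosphate transporter *Slc34a1* at 423 CPM per kilobase in the proximal list, and from the sodium channel subunit *Scnn1g* at 14.1 to *Umod*, which encodes uromodulin, at 374 in the distal list. *Cd2ap* and *Podxl* therefore lay above the lowest tubule marker, and the other 6 genes lay below all 11 of them. Defining markers of kidney tubules were thus present in RNA labelled as kidney.

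The other cells of the glomerulus and interstitium were also represented. All 7 endothelial genes lay above the median of the podocyte genes, from 3.62 CPM per kilobase for the VEGF receptor *Flt1* to 23.3 for the sialomucin *Emcn*. *Podxl*, at 24.3, was above each of these. The 6 genes of mesangial cells and pericytes ranged from 1.36 (*Cspg4*) to 27.1 CPM per kilobase (*Ren1*, renin), with a median of 6.39. Of 4 macrophage genes 3 could be given a length, and they ranged from 1.39 CPM per kilobase for *Adgre1*, listed as *Emr1*, to 13.4 for *Lyz2*. The share of *Podxl* and *Cd2ap* reads that came from cells other than podocytes was not tested.

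**Figure D3:**
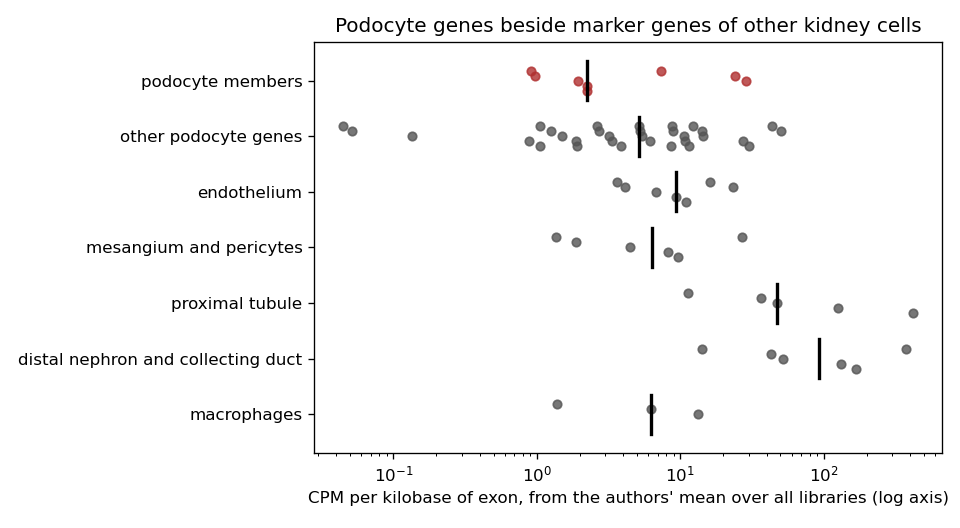
Each point is a gene, placed on a log axis by its level in CPM per kilobase of exon from the authors' mean over all libraries, and vertical bars are list medians. The 8 podocyte genes (red) have a median of 2.24, against 47.5 for the proximal tubule and 92.3 for the distal nephron and collecting duct.

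The 3′-UTRs of the podocyte genes were searched for matches to the seeds shown above. For each gene the longest 3′-UTR of a protein-coding GENCODE transcript was read on its own strand, and a match was the 7-base complement of seed bases 2 to 8, that is GCACTTT for miR-17-5p and miR-20a-5p, GCACCTT for miR-18a-5p, TTTGCAC for miR-19a-3p and miR-19b-3p, and GTGCAAT for miR-92a-3p. Of the 8 genes, 6 held at least 1 match, as did 28.8% of 21022 genes. The podocyte genes have long 3′-UTRs, with a median of 2202.5 bases against 961 over all genes, so the 28.8% is not matched for length. *Nphs1*, with the shortest 3′-UTR of 418 bases, and *Wt1*, with 1272 bases, held none.

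The miR-17 match of *Magi2* with the miR-19 match that overlaps it, and both matches of *Ptpro*, are shown. These were the podocyte genes with a match to the miR-17 seed. The match in *Podxl*, a gene of the high pair, is also shown, and that of *Cd2ap*, the most abundant gene, is not. The match is in capitals within 30 bases of the 3′-UTR, on the transcript's strand.
Magi2 miR-17: gctcttcatttGCACTTTgacaaagtattt
Magi2 miR-19: aaagctcttcaTTTGCACtttgacaaagta
Ptpro miR-17: gctgtaaaaatGCACTTTctttctccaccc
Ptpro miR-92a: tttttttttaaGTGCAATaatttctgtata
Podxl miR-19: aattccatcggTTTGCACcctcctttgcca

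*Magi2* held the most, with 4 matches in 2666 bases. Its miR-17 match lies at bases 1491 to 1497 of the 3′-UTR (chromosome 5, 20703617 to 20703623) and overlaps a miR-19 match at 1488 to 1494. It also held a second miR-19 match and 1 for miR-18a. Among the 3126 genes whose 3′-UTR is within 25% of that length, 22.3% held a miR-17 match, 19.2% a miR-19 match and 14.5% a miR-18a match. *Ptpro* held a miR-17 match at bases 900 to 906 (chromosome 6, 137462980 to 137462986) and a miR-92a match at 325 to 331 of 1153 bases, where 10.1% and 5.12% of 3499 genes of similar 3′-UTR length held each. *Podxl* held 1 match for miR-19, at bases 1167 to 1173 of 3534 (chromosome 6, 31521849 to 31521855), as did 24.3% of 2412 genes of similar length. *Plce1* held 1 for miR-19 and 1 for miR-92a, *Cd2ap* 1 for miR-92a and *Synpo* 1 for miR-18a. Among genes of similar 3′-UTR length the shares were 18.6% and 11.2% for *Plce1*, 14.8% for *Cd2ap* and 9.38% for *Synpo*. A match describes these letters only, and whether any of these transcripts is bound by a miRNA was not tested. A match also does not show that a transcript lost the miRNA in any cell type, and deletion of the cluster in podocytes was not tested.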

How the data were processed

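Kidney RNA of 3 SKO and 3 DKO mice was sequenced as strand-specific total RNA libraries. The authors mapped trimmed reads with TopHat 2.0.12 to mm10 with the iGenomes annotation and discarded alignments of low mapping quality. The submitters' processing notes also list Cufflinks, featureCounts of Subread 1.4.6 and edgeR 3.2.4. The authors' deposited log2 values used here are the mean log2 CPM of each transcript over all libraries, which may contain a prior count. The table's 4 other columns hold the authors' own comparison (a fold change, a statistic and its raw and adjusted significance) and were not used. An edgeR test of DKO against SKO was planned for the case that counts were given for each sample, and was not run because the table used here has no value for a single sample. No test was made.

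A gene was represented by its row with the highest mean and, per kilobase, by its highest RefSeq mRNA row with a GENCODE M21 length (GRCm38, the assembly of mm10). The lengths are not those of the annotation the authors counted on. Of 27012 RefSeq mRNA rows 96.6% were matched, and all 14 of the podocyte genes. Of 3911 genes with several RefSeq mRNA rows, 28.4% had rows with equal values to 9 decimals. Lists of marker genes were written by name, and the members and lists were chosen with earlier results of these data known. Genes named from the lists are the 4 highest and 4 lowest of the other podocyte genes by mean log2 CPM, the ends of each cell type list and *Cdh16*. A gene of these lists is not reported here by name. Percentiles and the site search were tested on simulated data. Python 3.11.15, numpy 2.4.6 and pandas 2.3.3 were used.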

Additional observations from a re-analysis of the deposited data

How the results depend on the processing

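The levels have no replicate error here, so each alternative is given as a value. The median of the 8 podocyte genes was 11.4 CPM with the highest row of each gene, 9.99 CPM with RefSeq mRNA rows only, 9.67 CPM with the median over a gene's rows and 11.3 CPM with the lowest CPM of the table subtracted. Their median percentile was 70.0 among all gene symbols, 46.3 among symbols with at least 1 CPM, 67.7 among all rows of the table and, in an alternative chosen after seeing the data, 57.3 per kilobase. The order of the 8 genes was the same with RefSeq mRNA rows only, and 3 of the 8 kept their place per kilobase. Leaving out a kidney, DESeq2 and a filter on counts were not run, because each needs a value for each kidney. No paired analysis was possible because the table has no column for a single sample and the labels carry no replicate numbers.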
